A study of Mus musculus with 7 samples.

Results

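Fusion of myoblasts and their contact with one another were followed through 9 genes in isolated muscle stem cells (MuSCs). These were the fusogens Mymk and Mymx, the cadherins Cdh15 and Cdh2, the immunoglobulin family adhesion gene Jam3, the tetraspanins Cd9 and Cd81, the tetraspanin partner Ptgfrn, and the metalloprotease gene Adam12. The genes were chosen by name, with earlier results of these data known, and all 9 were found among the 56748 genes counted in each library.

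MuSCs came from the hindlimb muscle of adult WT mice and of adult mice homozygous for Jag2sm, a naturally occurring allele of the NOTCH ligand gene Jag2 that changes a glycine in an extracellular EGF repeat of the protein. The sample labels write this genotype as Jag2-/-, whereas the study describes a reduced function of the gene rather than its removal. The allele was present in all cells of these animals, so that the genotype was not limited to MuSCs. Cells carrying CD31, CD45 or Sca1 were removed on magnetic columns, and Integrin α7-positive cells were retained. The study's cell methods describe MuSC culture on collagen in a growth medium with serum and bFGF. Its sequencing methods do not say whether the cells of these libraries were cultured. No agent was given to either genotype. RNA from 3 WT and 4 Jag2sm samples was made into 7 direct cDNA libraries and read on a nanopore instrument. The sources used here do not say whether each sample came from a separate mouse, so p-values measure the spread between these samples.

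Myoblasts leave the cell cycle, adhere to one another through cadherins and immunoglobulin family proteins, and then merge their membranes into a multinucleated fiber. Mymk encodes myomaker, a membrane protein that starts the mixing of the outer lipid layers, and Mymx encodes myomixer (also called myomerger or minion), a micropeptide that opens the fusion pore. Both genes are switched on in differentiating myoblasts by MYOD and myogenin, which bind DNA at E-boxes of the form CANNTG. Tetraspanins organize adhesion and fusion proteins in the plane of the membrane.

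The 250 bases before the outermost annotated start of Mymk, the fusogen with the larger change, are shown beside those of Cdh15, a contact gene whose change did not pass the test. Both are written 5′ to 3′ on the strand of the gene, from the GRCm39 genome, with every CANNTG in capitals. The Mymk window lies at chr2:26962229-26962478 on the minus strand, inside the annotated span of Adamtsl2. The Cdh15 window lies at chr8:123574455-123574704 on the plus strand.
Mymk: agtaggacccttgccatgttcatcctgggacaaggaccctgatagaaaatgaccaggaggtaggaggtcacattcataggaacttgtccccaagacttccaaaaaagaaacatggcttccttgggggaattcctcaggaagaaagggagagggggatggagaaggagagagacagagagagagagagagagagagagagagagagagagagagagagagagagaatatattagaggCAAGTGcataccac
Cdh15: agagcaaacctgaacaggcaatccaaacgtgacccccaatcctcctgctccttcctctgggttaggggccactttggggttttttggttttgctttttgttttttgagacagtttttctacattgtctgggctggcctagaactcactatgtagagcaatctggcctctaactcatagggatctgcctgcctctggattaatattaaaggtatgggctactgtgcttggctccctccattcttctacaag

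The Mymk window held 1 E-box, CAAGTG, whose first base lies 14 bases before the start, and the Cdh15 window held none. Among the promoters of 21770 genes taken the same way, 66.5% held at least 1 CANNTG. The forms CAGCTG and CACCTG (the latter on either strand) were in neither window, and in 12% and 17.7% of these promoters. The match is a description of these letters, and sites farther from the start were not searched.

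The libraries held between 187834 and 1937581 reads counted on genes, and levels are given as CPM, which scale the counts of each library to the same total, corrected for composition by TMM. WT replicate 1 was the shallowest, with 187834 counts. Before the TMM correction, 3 counts equal 16.0 CPM there, against 1.55 to 4.47 CPM in the other 6 libraries. WT replicate 1 also had 45.1% of its aligned reads on no gene, against 20.8% to 25.7% in the others. Reads that did not align made up 46.0% to 50.8% of Jag2sm replicates 1, 2 and 4, and 2.44% to 3.24% of the other 4 libraries, Jag2sm replicate 3 included. Jag2 itself was at 80.7, 114 and 116 CPM in WT and at 42.4, 78.8, 71.9 and 77.4 CPM in Jag2sm MuSCs, with a log2 fold change of -0.64 ± 0.243 (SE, edgeR adjusted p = 0.166). Every Jag2sm library lay below every WT library, but the difference did not pass the test. The MuSC label was checked with Pax7, a defining MuSC gene, which was at 28.8 to 95.7 CPM in WT and 100 to 172 CPM in Jag2sm libraries, and with Myod1, which was at 615 to 830 CPM in all 7. The endothelial markers Kdr and Tie1, the fibro-adipogenic markers Dpt and Lum, and the immune markers Ptprc, Adgre1, Lyz2 and C1qa had no counts in any library. Other markers of these lists had counts, set here over 3004053 counts on genes in WT and 5254162 in Jag2sm libraries. Pecam1, which encodes CD31, had 2 counts in WT and 16 in Jag2sm, and Ly6a, which encodes Sca1, had 6 and 43, or at most 2.59 CPM in WT and 19.3 CPM in Jag2sm. Cd34 had 31 and 88 counts, Cd68 5 and 11, and Pdgfra 1 and 7. For the rest of these lists, Tek had 6 and 9 counts, Cdh5 1 and 4, and Emcn and Csf1r 0 and 1 each. Dcn went the other way, with 3 counts in WT and 0 in Jag2sm.

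The fusogens were lower in Jag2sm MuSCs, whereas none of the 6 tested contact genes passed the test. Of the 9 genes, 8 had enough counts for the test, and 2 of them, Mymk and Mymx, were called, both lower. Across all genes, 594 of 9489 were called at an adjusted p under 0.05 (6.26%), with 459 lower (4.84%) and 135 higher (1.42%). Scaling by library size alone gave 384 lower and 241 higher, with a median log2 fold change of all tested genes of 0.21 in place of 0.049. Mymk and Mymx were also the 2 of the 8 tested genes whose genotypes did not overlap, both with every Jag2sm library below every WT library. Among all tested genes 12.2% lay in this order and 10.3% in the opposite one, 22.5% in all. The 6 contact genes that were tested had log2 fold changes between -0.61 and 0.75 with a median of -0.23. An unadjusted edgeR p under 0.05 was found for 1 of them, and for 1873 of all 9489 tested genes.

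**Figure D1:**
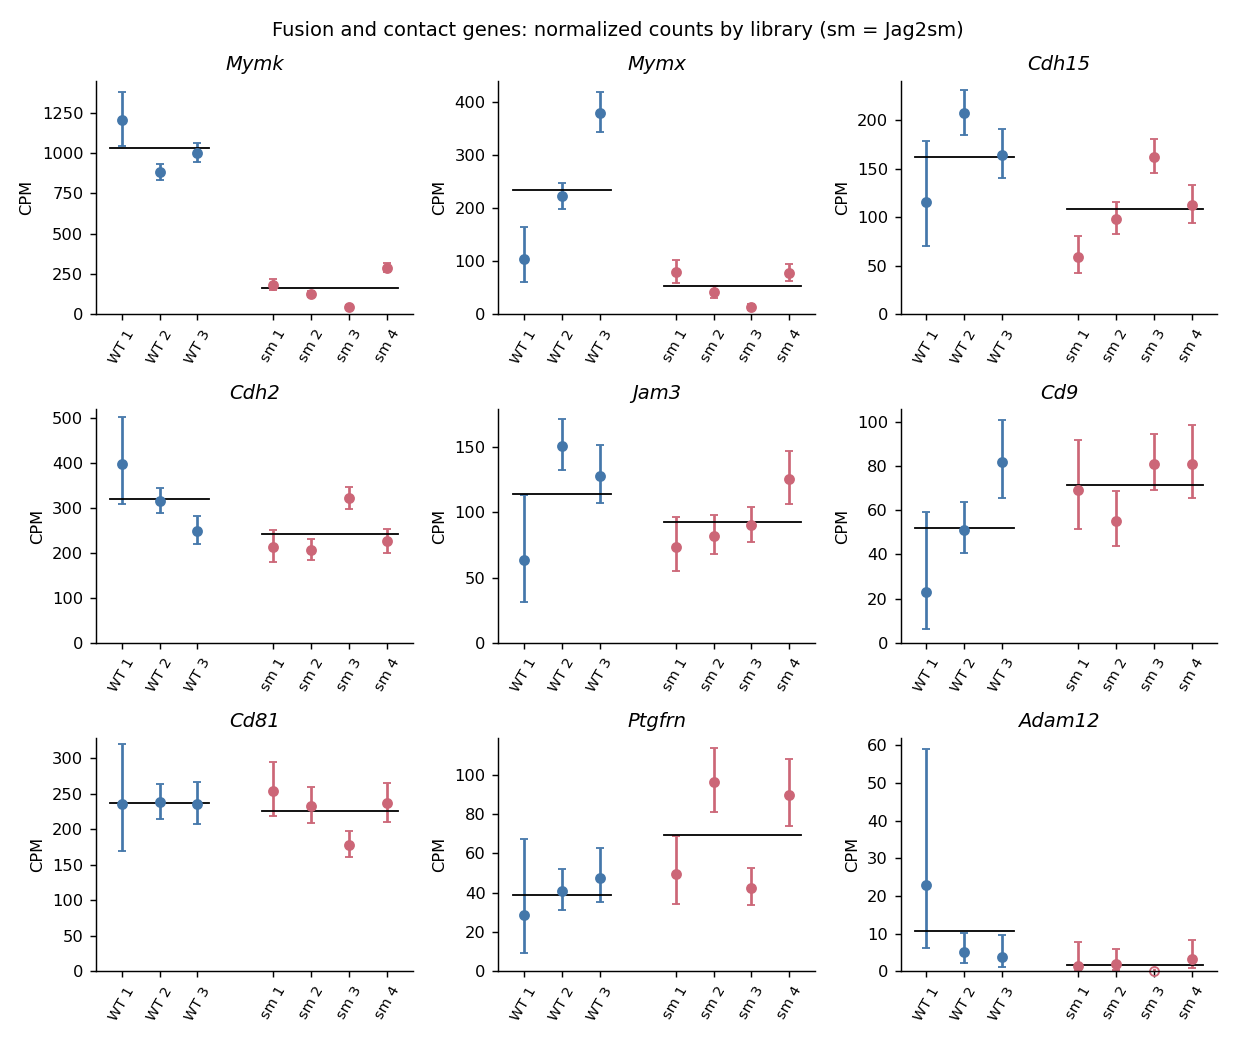
CPM of each of the 9 genes on linear axes starting at 0, by library; points are libraries, bars are 95% exact binomial intervals that cover counting error only, and lines are genotype means. Mymk sits at 882 to 1205 CPM in WT and 45.8 to 289 CPM in Jag2sm libraries, while the Cd81 means are 236 and 226 CPM.

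Mymk (chromosome 2, 26951627 to 26962228, minus strand) was at 1205, 882 and 1001 CPM in WT and at 182, 126, 45.8 and 289 CPM in Jag2sm MuSCs. All 4 Jag2sm libraries lay far below the lowest WT library. WT libraries averaged 1030 ± 163 CPM (SD, n = 3) and Jag2sm libraries 161 ± 102 CPM (SD, n = 4), 6.40-fold less. The log2 fold change was -2.68 ± 0.481 (SE), with a 95% interval of -3.74 to -1.62 and an edgeR adjusted p of 0.0103. The exact permutation test of its log2 CPM gave p = 0.0286, the smallest that 3 against 4 libraries can give. In replicates 1, 2 and 3 the difference between the libraries that share a batch number was -2.71, -2.79 and -4.40 on the log2 CPM scale. Mymk was lower than in the WT library of the same number each time.

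Mymx (chromosome 17, 45911239 to 45913028, minus strand) was at 104, 222 and 380 CPM in WT and at 79.2, 41.5, 13.8 and 78.3 CPM in Jag2sm MuSCs. The genotypes did not overlap, but WT replicate 1, whose value rests on 18 counts, lay close to the highest Jag2sm libraries. Its 95% counting interval of 61.5 to 164 CPM reaches below them. WT libraries averaged 235 ± 139 CPM (SD, n = 3) and Jag2sm libraries 53.2 ± 31.6 CPM (SD, n = 4), 4.43-fold less. On the log2 scale the change was -2.26 ± 0.535 (SE), with a 95% interval of -3.44 to -1.07, an edgeR adjusted p of 0.0318 and an exact permutation p of 0.0286. The within-number differences were -0.38, -2.38 and -4.62 on the log2 CPM scale, all of them negative and widely spread. The call was lost with the replicate number as a block (log2 fold change -2.61, edgeR adjusted p = 0.0675), in the robust fit (adjusted p = 0.0598), and without WT replicate 2 (adjusted p = 0.0807), WT replicate 3 (log2 fold change -1.76, adjusted p = 0.158) or Jag2sm replicate 2 (adjusted p = 0.113). The Mymk call held in each of these.

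The share of unaligned reads can be set beside these levels. Jag2sm replicate 3, with 3.07% of reads unaligned, had the lowest Mymk and Mymx of all 7 libraries, and Jag2sm replicate 4, with 46.0% unaligned, had the highest Mymk of the 4. The part of the unaligned reads in the fusogen difference was not tested.

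Myog, which encodes myogenin, was at 2894, 2222 and 2851 CPM in WT and at 711, 387, 110 and 906 CPM in Jag2sm libraries. Its log2 fold change was -2.33 ± 0.545 (SE, edgeR adjusted p = 0.0300), and the call was lost without any 1 of WT replicates 1, 2 or 3 or Jag2sm replicates 1 or 2 (adjusted p up to 0.107). Myod1, which encodes MYOD, was at 697, 830 and 808 CPM in WT and at 632, 686, 615 and 806 CPM in Jag2sm libraries. Its log2 fold change of -0.19 ± 0.221 (SE, edgeR adjusted p = 0.696) did not pass the test. Jag2sm replicate 3 was the lowest library for Mymk, Mymx, Myog and Myod1 alike.

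The summed level of 10 differentiated muscle markers was lower in Jag2sm libraries, as both fusogens were. It was 40016, 23349 and 25793 CPM in WT and 4661, 2723, 928 and 5421 CPM in Jag2sm libraries, and 8 of the 8 markers that were tested were lower. Jag2sm replicate 3 was the lowest and replicate 4 the highest of its genotype, as for Mymk. Mymx was also lowest in Jag2sm replicate 3, but it was at 79.2 CPM in replicate 1 and 78.3 CPM in replicate 4. In WT, replicate 1 had the highest sum and the highest Mymk but the lowest Mymx, at 104 CPM against 222 and 380 CPM. In RNA from a whole sample of cells, fewer differentiated cells and less fusogen RNA per cell cannot be told apart. The sum of 6 myoblast markers was 2882 to 5493 CPM in WT and 1736 to 2201 CPM in Jag2sm libraries, with 1 of the 6 called, Des, which was lower. Des alone was at 4600, 1807 and 1875 CPM in WT and made up the larger part of the WT sum. Of the other 5, Pax7 (log2 fold change 0.80), Vcam1 (1.03) and Myf5 (0.60) had values above 0 and Itga7 (-0.63) and Myod1 below, and none passed the test. Tenocyte markers, 4 in all, summed to 115 to 123 CPM in WT and 29.6 to 75.8 CPM in Jag2sm, nearly all of it from Scx, which was called lower. Mural markers, 6 in all, summed to 32.2 to 86.5 CPM in WT and 31.8 to 646 CPM in Jag2sm, and 645 CPM in Jag2sm replicate 1 came from Rgs5; Abcc9 of this list was called lower. The remaining lists, with 6 endothelial, 6 fibro-adipogenic, 6 immune and 5 glial genes, summed to at most 16.1 CPM in WT and 44.9 CPM in Jag2sm. The part of any of these cell types in the fusogen difference was not tested.

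The genes whose log2 CPM was most like that of Mymk over the 7 libraries were Itgb1bp2, which encodes melusin (Pearson r = 0.997), the troponin gene Tnnt3 (0.997), the embryonic myosin heavy chain gene Myh3 (0.996), the troponin gene Tnnc1 (0.995) and Lmo7 (0.995). These values describe libraries that share their genotype difference. After the genotype means were removed, r was between 0.975 and 0.995 for the 5 genes. Itgb1bp2, for example, was at 115, 98.3 and 131 CPM in WT and at 18.4, 11.8, 3.45 and 29.4 CPM in Jag2sm, with the same order of the 4 Jag2sm libraries as Mymk. Mymx had r = 0.899, which placed it 345th of 9489. Among the contact genes r was 0.61 for Cd81, 0.35 for Cdh2, 0.29 for Cdh15 and 0.27 for Jam3, and it was -0.42 for Ptgfrn and -0.51 for Cd9.

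**Figure D2:**
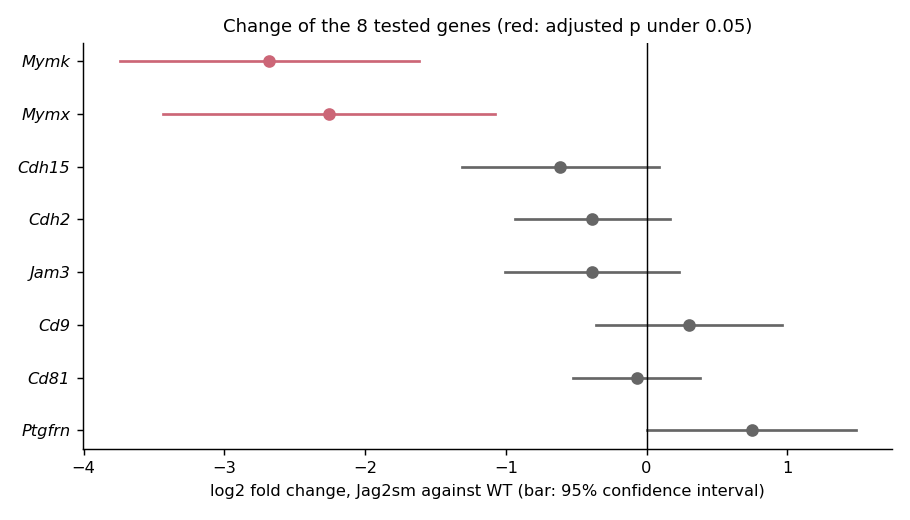
Log2 fold change of Jag2sm against WT (x axis) for the 8 tested genes, with 95% confidence intervals from the edgeR fit; red marks an adjusted p under 0.05. The interval of Mymk (-3.74 to -1.62) lies wholly below those of the tested contact genes. That of Mymx (-3.44 to -1.07) overlaps the interval of Cdh15 (-1.31 to 0.085) and lies below those of the other contact genes.

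Cdh15 (chromosome 8, 123574705 to 123596048, plus strand) encodes M-cadherin, the cadherin typical of MuSCs and myoblasts. It was at 115, 207 and 164 CPM in WT and at 59.4, 98.1, 162 and 112 CPM in Jag2sm MuSCs. Jag2sm replicates 1, 2 and 4 lay below all WT libraries and replicate 3 lay among them. WT libraries averaged 162 ± 45.8 CPM (SD, n = 3) and Jag2sm libraries 108 ± 42.5 CPM (SD, n = 4). The log2 fold change was -0.61 ± 0.316 (SE), with a 95% interval of -1.31 to 0.085 and an edgeR adjusted p of 0.318, so that a decrease of the size seen for Mymk lay outside the interval. It ran from -0.38 without WT replicate 2 to -0.88 without Jag2sm replicate 3. Within replicate numbers the difference was -0.94, -1.06 and -0.017 on the log2 CPM scale.

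Cdh2 (chromosome 18) encodes N-cadherin, which is shared by MuSCs, muscle fibers and many other cell types. It was at 398, 316 and 249 CPM in WT and at 214, 207, 322 and 226 CPM in Jag2sm MuSCs. Jag2sm replicate 3 lay above 2 of the WT libraries, and the other Jag2sm libraries lay below all of them. On the log2 scale the change was -0.38 ± 0.248 (SE), with a 95% interval of -0.93 to 0.16 (edgeR adjusted p = 0.431). It was -0.23 without WT replicate 1 and -0.55 without Jag2sm replicate 3. The differences within numbers were -0.89, -0.61 and 0.37. Jag2sm replicate 3, the library with the lowest fusogens, was thus the highest of its genotype for both cadherins.

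Jam3 (chromosome 9, 27005652 to 27066915, minus strand) encodes a junctional adhesion molecule of the immunoglobulin family. It was at 63.4, 151 and 128 CPM in WT and at 73.5, 82.2, 90.2 and 126 CPM in Jag2sm MuSCs. All 4 Jag2sm libraries lay between the lowest and the second highest WT value. edgeR gave a log2 fold change of -0.39 ± 0.280 (SE), with a 95% interval of -1.003 to 0.23 (edgeR adjusted p = 0.495). WT replicate 1 rests on 11 counts here, and the log2 fold change was -0.60 without it (edgeR adjusted p = 0.166) and -0.13 without WT replicate 2. Exons of Jam3 overlap those of Gm48796 and Ncapd3 on the other strand, and since the strand setting of the counting is not given, reads of these genes may not be separated.

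Cd9 (chromosome 6, 125437210 to 125471778, minus strand) encodes a tetraspanin known from sperm-egg fusion and from myoblasts. It was at 23.1, 51.1 and 81.6 CPM in WT and at 69.3, 55.3, 80.8 and 80.7 CPM in Jag2sm MuSCs. The Jag2sm libraries lay within the WT range, whose lower end is WT replicate 1 with 4 counts. edgeR gave a log2 fold change of 0.30 ± 0.298 (SE), with a 95% interval of -0.36 to 0.96 (edgeR adjusted p = 0.631). The value became 0.12 when WT replicate 1 was left out and 0.72 when WT replicate 3 was.

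Cd81 (chromosome 7, 142606314 to 142621672, plus strand) encodes a tetraspanin related to CD9. It was at 236, 238 and 235 CPM in WT and at 255, 233, 178 and 236 CPM in Jag2sm MuSCs. WT libraries were nearly equal, each within the counting intervals of the others, and Jag2sm replicate 3 was the low library. The means were 236 ± 1.34 CPM (SD, n = 3) and 226 ± 32.8 CPM (SD, n = 4). The change was -0.071 ± 0.203 (SE) on the log2 scale, with a 95% interval of -0.52 to 0.38 (edgeR adjusted p = 0.902). It turned to 0.089 with library size alone and to 0.029 without Jag2sm replicate 3, so no direction is given for it. Exons of Cd9 and Cd81 overlap those of Gm26728 and R74862, respectively, on the other strand.

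Ptgfrn (chromosome 3, 100947548 to 101017720, minus strand) encodes an immunoglobulin family protein that binds CD9 and CD81 in the membrane. It was at 28.8, 40.7 and 47.4 CPM in WT and at 49.5, 96.0, 42.4 and 89.7 CPM in Jag2sm MuSCs. Jag2sm replicates 1, 2 and 4 lay above all WT libraries and replicate 3 lay among them. WT libraries averaged 39.0 ± 9.42 CPM (SD, n = 3) and Jag2sm libraries 69.4 ± 27.4 CPM (SD, n = 4). The log2 fold change was 0.75 ± 0.335 (SE), with a 95% interval of 0.0059 to 1.49, and did not pass the test over all genes (edgeR adjusted p = 0.249). Within replicate numbers the difference was 0.75, 1.20 and -0.16 on the log2 CPM scale.

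Adam12 (chromosome 7, 133484928 to 133833875, minus strand) encodes meltrin α, a disintegrin and metalloprotease first described in fusing myoblasts. Its counts were 4, 8 and 4 in WT and 1, 3, 0 and 4 in Jag2sm libraries, too few to pass the filter for the test. These are 23.1, 5.17 and 3.79 CPM in WT and 1.41, 2.07, 0 and 3.26 CPM in Jag2sm. A count of 0 in Jag2sm replicate 3 allows up to 1.55 CPM before the TMM correction. Every Jag2sm library lay below every WT library, although Jag2sm replicate 4 and WT replicate 3 had the same count. Summed over libraries, 8 Jag2sm counts against 16 WT counts gave a ratio of rates of 0.286, with an exact binomial 95% interval of 0.106 to 0.708. Without WT replicate 1 the ratio was 0.357, with an interval of 0.127 to 0.951, and both intervals cover counting error only. With no filter on low counts the log2 fold change was -2.03 ± 0.792 (SE, edgeR adjusted p = 0.146), and DESeq2 gave an adjusted p of 0.254.

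**Figure D3:**
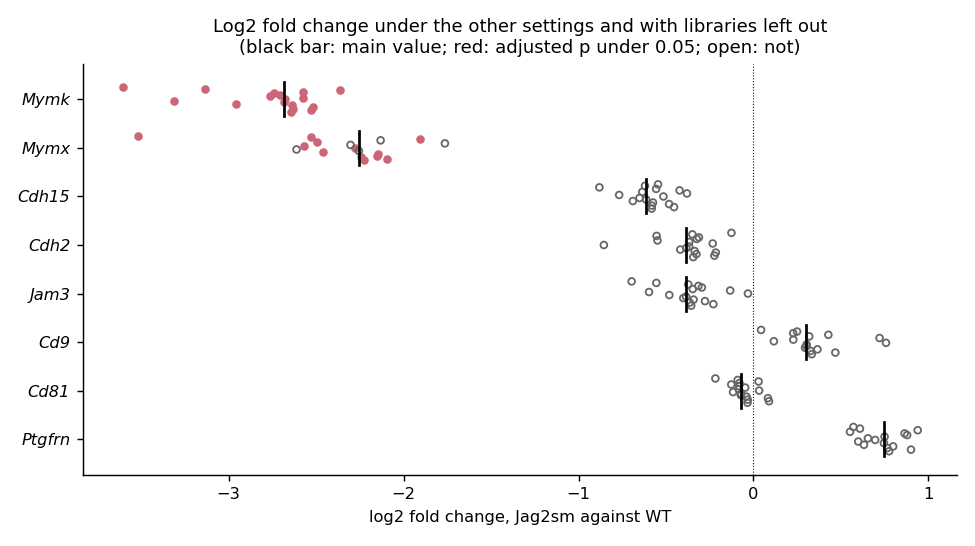
Log2 fold change of Jag2sm against WT (x axis) for the 8 tested genes under each other setting and with each library left out; each circle is 1 setting, black bars are the main values, red circles have an adjusted p under 0.05. Mymk is red throughout, between -3.61 and -2.36, Mymx turns open in 5 settings, and Cd81 lies on both sides of 0.

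Ratios between pairs of these genes within a library do not depend on the scaling between libraries, and 4 pairs were compared. The log2 ratio of Mymk to Cdh15 counts was 3.35, 2.09 and 2.61 in WT and 1.61, 0.36, -1.82 and 1.36 in Jag2sm libraries. The genotypes did not overlap, and the means differed by -2.31, with an exact two-sided permutation p of 0.0571 (0.229 adjusted over the 4 pairs). The log2 ratio of Mymk to Mymx was 3.50, 1.99 and 1.40 in WT and 1.20, 1.59, 1.71 and 1.88 in Jag2sm libraries. These overlapped, with a difference of -0.70 (exact permutation p = 0.257, adjusted p = 0.343), which was -0.10 without WT replicate 1. The ratio of Cdh15 to Cdh2 differed by -0.23 (exact permutation p = 0.571) and that of Cd9 to Cd81 by 0.66 (exact permutation p = 0.229, adjusted p = 0.343). With 1 library left out, the former ran from -0.62 without WT replicate 1 to -0.030 without Jag2sm replicate 1, and the latter from 0.21 without WT replicate 1 to 1.05 without WT replicate 3. No pair differed beyond the threshold after adjustment. The exact permutation test on 3 against 4 libraries gives no p below 0.0286, so 1 pair alone could not have passed. The adjusted values therefore do not decide whether a single pair differed.

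**Figure D4:**
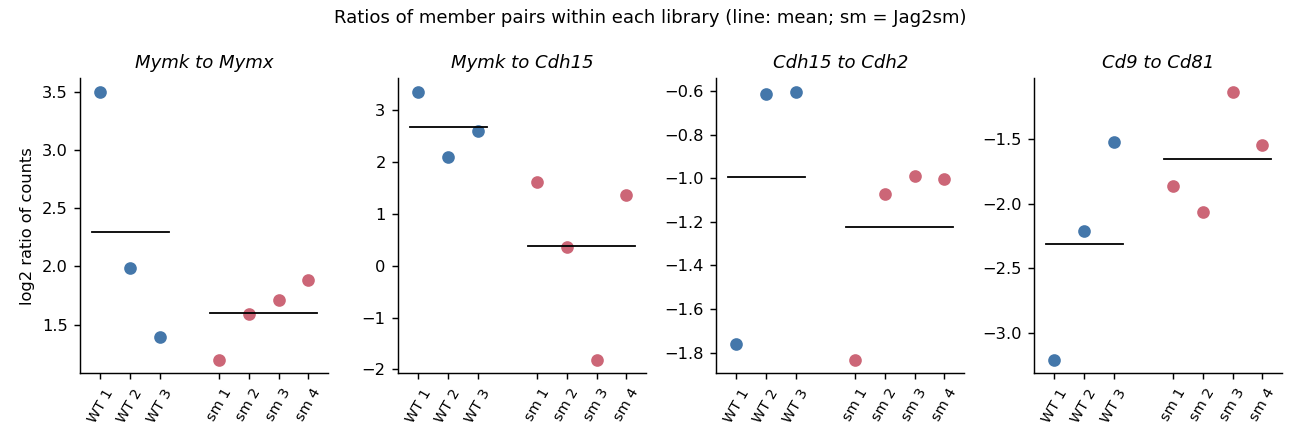
Log2 ratio of raw counts of 4 gene pairs (y axis, one scale per panel) in each library; lines are genotype means. The Mymk to Cdh15 ratio is 2.09 or more in WT and 1.61 or less in Jag2sm, and the other pairs overlap.

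A wider list of 65 genes known from myoblast adhesion and fusion was read from the same fit. Of these, 50 were tested and 2 were called (4.00%), 1 lower and 1 higher, against 6.26% of all tested genes. Their median log2 fold change was 0.20, with 28 above and 22 below 0, where all tested genes had a median of 0.049. In 14 of the 50 the genotypes did not overlap, against 22.5% of all tested genes.

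Cav3, which encodes the caveolin of muscle membranes, was at 559, 291 and 377 CPM in WT and at 49.5, 37.3, 15.8 and 65.2 CPM in Jag2sm MuSCs. The Jag2sm libraries all lay far below the WT libraries, in the same order among themselves as for Mymk. The log2 fold change was -3.29 ± 0.417 (SE, edgeR adjusted p = 0.00285), and Cav3 was called in all 17 other settings. Adam15, which encodes another metalloprotease of the family of Adam12, was at 5.76, 3.88 and 8.54 CPM in WT and at 18.4, 19.3, 14.3 and 17.9 CPM in Jag2sm MuSCs. All Jag2sm libraries lay above all WT libraries, with 16 counts in WT in all. On the log2 scale the change was 1.53 ± 0.388 (SE, edgeR adjusted p = 0.0423). The call was lost with DESeq2 (adjusted p = 0.0932), with the replicate block (adjusted p = 0.144) and without any 1 of the libraries other than Jag2sm replicate 3 (adjusted p up to 0.235). Exons of Adam15 overlap those of 4731419I09Rik and Gm66683 on the other strand.

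By role, 0 of 5 tested cadherin and catenin genes were called (median log2 fold change -0.069), 0 of 11 immunoglobulin family contact genes (-0.27), 0 of 4 tetraspanins and partners (0.49), 1 of 5 ADAM metalloproteases (-0.17), 0 of 18 actin regulators of fusion (0.20) and 1 of 7 phosphatidylserine and membrane genes (0.51). Unadjusted, 11 of the 50 had a p under 0.05 in edgeR, against 1873 of all 9489 tested genes. The 4 tetraspanins and partners (Cd82, Cd151, Cd63 and Igsf8) had log2 fold changes between 0.30 and 0.68, and none passed the test. WT replicate 1 was the lowest library for all 4, with 432 CPM of Cd63 against 1416 and 1413 in the other WT libraries, and 5.76 CPM of Igsf8 against 29.7 and 22.8. Without it the 4 values were between 0.17 and 0.50.

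**Figure D5:**
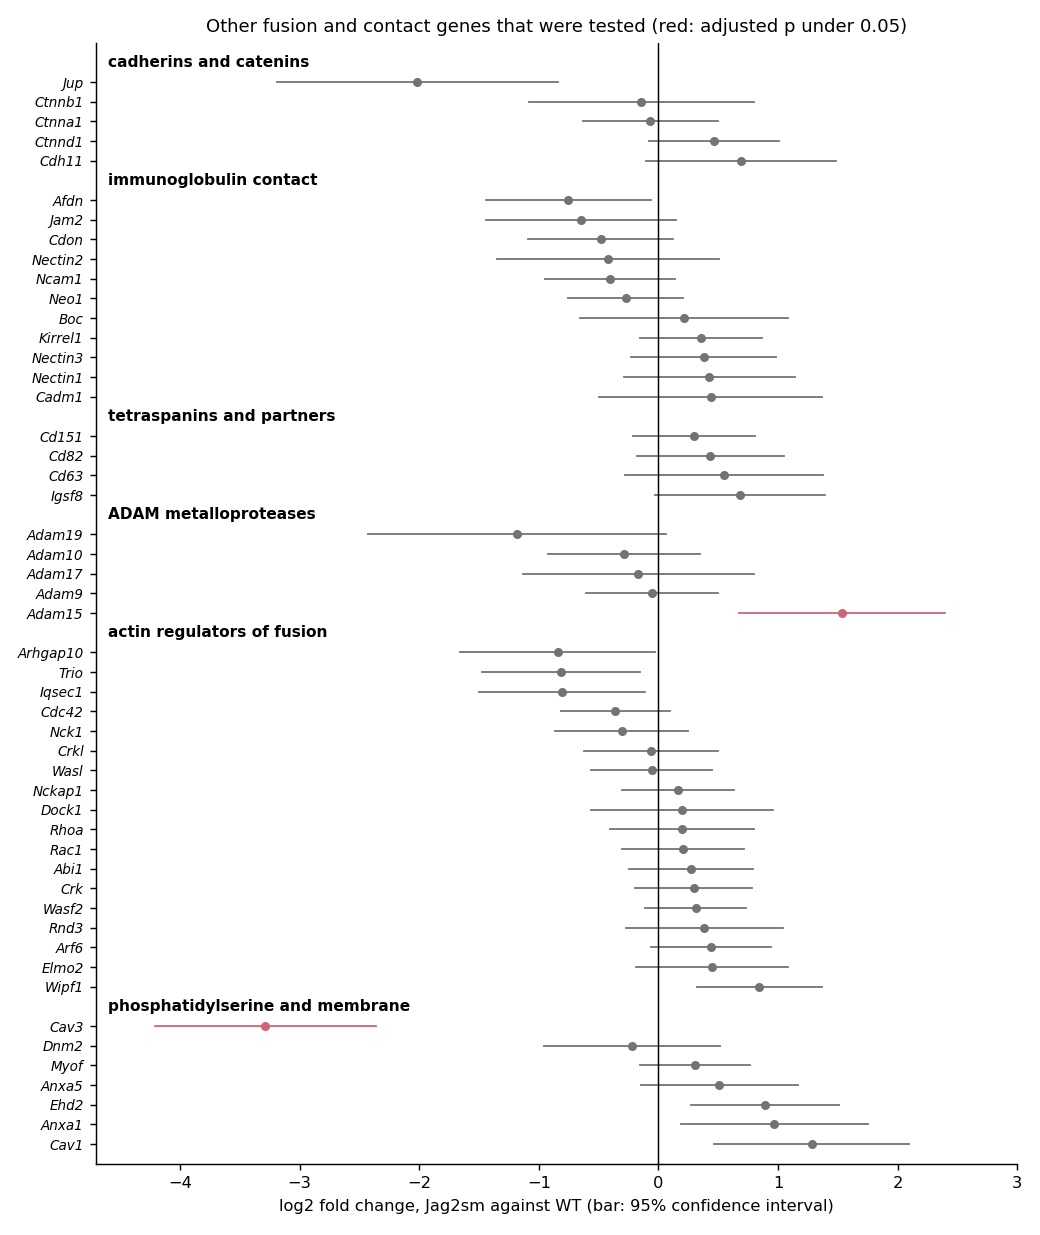
Log2 fold change of Jag2sm against WT (x axis) with 95% confidence intervals for the 50 tested genes of the wider list, grouped by role; red marks an adjusted p under 0.05. Cav3 lies at -3.29 and Adam15 at 1.53, and the remaining 48 did not pass the test.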

How the data were processed

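RNA of isolated MuSCs was measured in 3 WT and 4 Jag2sm direct cDNA libraries. The authors called bases with dorado, aligned reads to GRCm39 with minimap2 (2.17 in the submitters' processing notes) and deposited raw read counts per gene from HTSeq. The annotation release, the HTSeq version and its strand setting are not given in the sources used here. The authors' table of DESeq2 results (mean, log2 fold change, its error, test statistic and p-values per gene) was not used. Rows that name no gene, 45.0% to 75.2% of reads, stayed out of library sizes and tests. Gene symbols, positions and overlaps came from GENCODE vM39, in which 56017 of the 56748 identifiers were found, 31625 with the same version.

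Counts were filtered with filterByExpr (minimum count 10, minimum total 15), normalized by TMM and compared with glmQLFit and glmQLFTest in edgeR 4.0.16 (R 4.3.3), without covariates, since the study names none, with Benjamini-Hochberg adjustment over the 9489 tested genes and a threshold of 0.05. Log2 CPM used a prior count of 2 and ratios added 0.5. Permutation tests ran over all 35 assignments of 7 libraries to 3 and 4 (SciPy 1.17.1) and were two-sided by the absolute difference of means. This definition was taken after the values were known. Doubling the smaller tail instead gives 0.0571 for Mymk and Mymx, the smallest p it allows. The script was tested on simulated data.

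The labels' batch number equals the replicate number, so numbers 1 to 3 pair WT with Jag2sm libraries and Jag2sm replicate 4 stands alone. Gene deviations of the pairs correlated at 0.0740, 0.0144 and 0.0539 across genes. Those of WT and Jag2sm libraries with unlike numbers correlated at -0.0944 to 0.0644. The block was an alternative, with other scalings, filters and tools (DESeq2 1.42.0, limma-voom 3.58.1), thinning to 187834 counts, and each library left out. Leaving out WT replicate 1 with the block was added after the data were seen. The 9 genes, the wider list and the 4 pairs were chosen with earlier results of these data known. Named besides them were the wider list's called genes, the 5 genes most like Mymk, marker lists, Jag2, Myog and Myod1. The promoter window was moved from the canonical to the outermost annotated start after a first look, since the former could lie in exons of another transcript. A further promoter sequence is not reported here.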

Additional observations from a re-analysis of the deposited data

Results flagged for a closer look

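Dixon's test at 95% was applied to 18 groups of 4 Jag2sm values, of which chance would mark about 1 in 20, and 2 were marked. Cdh2 in Jag2sm replicate 3 was at 322 CPM, where the nearest of the other 3 libraries was at 226 CPM, a gap of 0.834 of the group's range. The log2 ratio of Cdh15 to Cdh2 in Jag2sm replicate 1 was -1.83, where the nearest was -1.07, a gap of 0.903 of the range. The Cdh15 value behind this ratio rests on 42 counts.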

How the results depend on the processing

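Mymk kept its direction and its call in all 17 other settings (log2 fold change -3.61 to -2.36, edgeR, DESeq2 or limma-voom adjusted p up to 0.0484). Mymx kept its direction in all 17 and its call in 12: it was -2.26 in the robust fit and -2.61 with the replicate block, both with an adjusted p above 0.05, and -2.57 to -1.76 with 1 library left out, the call being lost without WT replicate 2 or 3 or Jag2sm replicate 2. With the block and without WT replicate 1 it was -3.52 (adjusted p = 0.00480). The number of the 9 genes called was thus 1 in the robust fit and with the block, and 1 to 2 with a library left out. Cd81 turned to 0.089 with library size alone, 0.082 with at least 10 counts in every library and 0.032 after thinning, and was -0.13 to 0.029 with 1 library left out, the highest without Jag2sm replicate 3. No tested contact gene other than Cd81 changed sign in these settings, and none was called; Cd9 and Ptgfrn could not be tested with at least 10 counts in every library. The 4 ratios kept their sign in these settings. With a prior count of 2 their exact permutation p stayed above 0.05, the lowest being 0.0857 for Mymk to Cdh15. With 1 library left out, too few assignments remain for this test to give a p below 0.05. Those p-values therefore do not decide whether a ratio differed, and no p was taken for the ratios with the block. The block changed no other call among the 9 genes.

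Over all genes, 594 calls became 1248 with no filter, 274 with at least 10 counts in every library, 256 after thinning and 251 to 616 with a library left out (343 without WT replicate 2, 341 without WT replicate 3 and 251 without Jag2sm replicate 2). The 135 higher calls became 241 with library size alone, 468, 43 and 55 under the same 2 filters and thinning, 206 with DESeq2, and 20 to 220 with a library left out (33 and 20 without WT replicates 2 and 3, 83, 30 and 220 without Jag2sm replicates 1, 2 and 3). The 459 lower calls became 780 with no filter, 231 with at least 10 counts, 201 after thinning and 221 to 466 with a library left out, 221 without Jag2sm replicate 2. In the wider list, higher calls went from 1 to 4 with library size alone, 5 with no filter, 0 with at least 10 counts, DESeq2, the block, thinning and the block without WT replicate 1, and 0 to 1 with a library left out. Lower calls went from 1 to 3 with no filter, 2 with at least 10 counts, DESeq2, limma-voom, the block and the block without WT replicate 1, and 1 to 2 with a library left out. In each setting with 2 lower calls, the added gene was Jup. The cause of these changes was not tested, beyond the fewer genes or libraries that some settings hold. The 187834 counts of WT replicate 1 limit genes of low level, since 3 counts there equal 16.0 CPM before the TMM correction.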

Other observations

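Jup, which encodes the junction protein plakoglobin, and Wipf1, an actin regulator, lay just outside the threshold and were singled out after their values were seen. Jup was at 213, 53.6 and 58.8 CPM in WT and at 39.6, 20.7, 22.7 and 9.78 CPM in Jag2sm MuSCs, with a log2 fold change of -2.02 ± 0.532 (SE, edgeR adjusted p = 0.0505). The genotypes did not overlap, the WT replicate 1 value rests on 37 counts, and without that library the log2 fold change was -1.34. It was called in 7 of the 17 other settings, among them DESeq2 (adjusted p = 0.00598) and the replicate block (adjusted p = 0.0128). Wipf1 was at 28.8, 60.1 and 48.4 CPM in WT and at 79.2, 106, 89.7 and 83.1 CPM in Jag2sm MuSCs. Its log2 fold change was 0.84 ± 0.236 (SE, edgeR adjusted p = 0.0625), and it was called in 2 of the 17. Cav1 and Ehd2 of the same list came next, with log2 fold changes of 1.28 (edgeR adjusted p = 0.0692) and 0.89 (edgeR adjusted p = 0.0919). For both of them the genotypes did not overlap, and each was called in 2 of the 17.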
